A study of Homo sapiens with 16 samples.

Results

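The regions described here lay in 3′UTRs, the stretch of an mRNA between its stop codon and its poly(A) tail, and did not touch a stop codon. They were taken from a merged list of 36970 regions that summarised the N6-methyladenosine (m6A) peaks of the series. A region was a member when its midpoint fell in the 3′UTR of the canonical transcript of a protein-coding gene and it overlapped no stop codon of such a transcript, on chromosomes 1 to 22 or X of hg38. The rule used position alone and gave 1836 regions in 1553 genes. For comparison, 5996 regions of the merged list overlapped a stop codon and 5131 had their midpoint in coding sequence.

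The study compared C4-2B, a human prostate cancer cell line that responds to enzalutamide, with MDV-R, a resistant line derived from C4-2B by serial desensitisation to enzalutamide, an antiandrogen drug, and kept in medium that contained the drug. Both lines carried the genotype label WT and were harvested at day 3. MDV-R was thus 1 derived line, and its state of resistance and its exposure to enzalutamide cannot be told apart in these data. Each line gave 4 libraries of RNA immunoprecipitated with an anti m6A antibody (IP) and 4 input libraries of RNA without enrichment. The labels do not say that replicates were separate cultures, so that p-values measure the spread between these libraries, which may be technical. Sample titles for MDV-R name a further cell line besides, and groups were taken from the cell line field. Of 10 markers of prostate luminal cells, 10 had a peak on an exon in at least 1 list of either line, and of 9 urothelial markers 0 had one in C4-2B and 1, UPK3A, had one in MDV-R, in 2 lists.

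m6A is deposited on nascent mRNA by the METTL3 and METTL14 methyltransferase complex, mainly at adenosines in a short sequence context that includes GGAC and is written DRACH (D is A, G or T, R is A or G, H is A, C or T). In mammalian mRNA it is most frequent around the stop codon and in the proximal 3′UTR. Reader proteins of the YTHDF family bind the modified base and promote mRNA decay, and 3′UTRs also hold binding sites for microRNAs and RNA-binding proteins. Enrichment by the antibody in MeRIP-seq (methylated RNA immunoprecipitation and sequencing) marks an interval of many bases, not a single modified base.

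To show what stood under the summits, the point of highest enrichment in a peak, the GGAC nearest to the strongest summit was read from the genome, with 12 bases before and 13 after it. Of 44 regions chosen for their strength, their distance from the stop codon or a difference between the lines, 18 had a GGAC within 50 nt of that summit. Capitals mark the GGAC, the sequences run 5′ to 3′ on the strand of the gene, and coordinates are 1-based on hg38. The strongest regions are shown first, then the most distant ones, then regions called in a single line, and then regions that differed between the lines.
MDM2: aaaaggttaggtGGACtaaagcattctgt, chr12:68842054-68842082, plus strand
PPIL2: caggtttggagaGGACcctgtgcccaccc, chr22:21697301-21697329, plus strand
CNKSR3: gataaatcttaaGGACattacgctaagtg, chr6:154388290-154388318, minus strand
ENAH: cacctgatttttGGACcaaagtttcatat, chr1:225487271-225487299, minus strand
PLIN4: taattcttactgGGACggaggcaactcgg, chr19:4502854-4502882, minus strand
FZD4: ggagttgtgcagGGACtctggcccaggca, chr11:86948882-86948910, minus strand
FRY: agtgagtaatgtGGACagggctatcttag, chr13:32298623-32298651, plus strand
LINGO3: tgctgggggcagGGACaggaaccactgtt, chr19:2287931-2287959, minus strand
THUMPD1: aaacaaaaacctGGACagacagcacataa, chr16:20735342-20735370, minus strand
EVC: ggagcatgatggGGACttccatgctggaa, chr4:5813939-5813967, plus strand
MBOAT1: actacactcagaGGACcatggaggcagag, chr6:20101461-20101489, minus strand
EFNB3: gtgaccaggcccGGACagaaatggcctgg, chr17:7710435-7710463, plus strand
SMIM10L2B: acctctgaccctGGACctgcttgggcaga, chrX:135097022-135097050, minus strand
WDR73: ataacagagccaGGACaataatcacatct, chr15:84640247-84640275, minus strand
GID8: gcctgcgagtcgGGACagttgatgggcac, chr20:62946015-62946043, plus strand
GATAD2A: tgctctcctattGGACgtagaggcagggg, chr19:19508508-19508536, plus strand
Not all 18 are shown. In 15 of the 18 the base after GGAC was not G, which makes the motif a DRACH, and in 4 it was T. The other chosen regions had no GGAC in that window, which says only that these letters are not within it.

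The 3′UTR regions lay well downstream of the stop codon. The distance of the midpoint from the stop codon, counted along the spliced 3′UTR, had a median of 1472 nt and quartiles of 763 and 2629 nt, and ran from 10 nt in ZHX2 to 17899 nt in CNKSR3. At least 500 nt separated 1537 of the 1836 regions (83.7%) from the stop codon. The 3′UTRs that held them were long, with a median of 3272 nt. A midpoint lay in the last exon for 1832 regions, and the other 4 were in ZBED6, TUG1 (2 regions) and a gene without a symbol. In these cases the annotated 3′UTR spans several exons.

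Per length of 3′UTR, the regions were densest at 1001 to 2000 nt from the stop codon. Over the canonical 3′UTRs of all genes that held a 3′UTR, stop codon or coding region, there were 7.79 regions per 100 kb in the first 500 nt, 10.4 at 501 to 1000 nt, 12.5 at 1001 to 2000 nt, 9.89 at 2001 to 4000 nt and 6.76 beyond 4000 nt. Regions near the stop codon that touch it are not members, which lowers the first value. Members were up to 3947 nt long, and a long region can touch the stop codon from a midpoint farther out. The exclusion can thus lower the next values too, and its part in the densities was not tested. Relative to the length of the 3′UTR the regions were spread more evenly, with 14.3% in the 20% of its length next to the stop codon, 20.5%, 23.3% and 24.3% in the following stretches of the same relative length and 17.5% in the one at the 3′ end. Only 107 regions (5.83%) had a midpoint within 300 nt of the annotated transcript end.

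**Figure D1:**
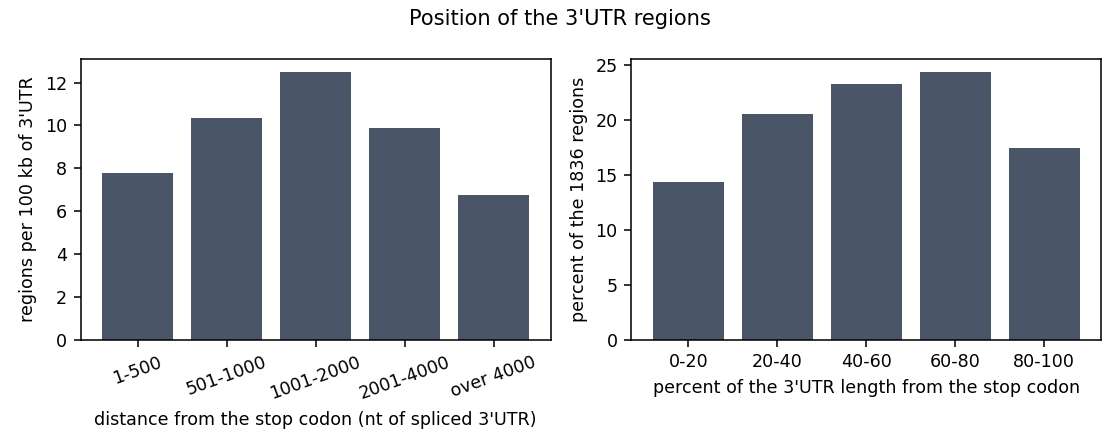
Left, number of 3′UTR regions per 100 kb of annotated 3′UTR (y axis) by distance from the stop codon (x axis); right, percent of the 1836 regions in each 20% of the length of the 3′UTR. The density is highest at 1001 to 2000 nt (12.5 per 100 kb), and the stretch from 60% to 80% holds the largest share (24.3%).

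Most of the 1553 genes, 1317, held 1 such region, 193 held 2, 39 held 3 and 4 held 4. A region over the stop codon was also present in 877 of them (56.5%). The genes with 4 were RPAP2, C14orf132, ZNF208 and AMZ1, and HEMK1 followed with 3. RPAP2, which encodes a phosphatase of RNA polymerase II, has an annotated 3′UTR of 15045 nt, and its regions lay 529, 1814, 3922 and 6464 nt from the stop codon. The last of these was called in all 8 lists and the others in 6 or 7. HEMK1, which encodes a glutamine methyltransferase, held regions at 2130, 4480 and 7256 nt of a 3′UTR of 15749 nt. The nearer 2 were called in all 8 lists and the most distant one in 2 MDV-R lists. In ZNF208, a zinc finger gene on chromosome 19 with close paralogs, the 4 regions were called in 4, 1, 1 and 3 C4-2B lists and in 0, 0, 0 and 1 MDV-R lists. Reads that map to a paralog of it as well were removed with the multiply mapped reads. In AMZ1, a metalloprotease gene, 3 regions were called in 2 MDV-R lists each and in 0 C4-2B lists, while the one at 3390 nt was called in all 8 lists. In C14orf132 the regions at 1417, 3175 and 5178 nt were called in 7 or 8 lists and the one at 4512 nt in 1.

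Overlap of 1 bp or more with a peak of a list made a region called there. Of the 1836 regions, 1791 were called in at least 1 list, 437 in all 8 and 45 in none. The 437 made up 24.4% of those called at least once, against 25.9% over all regions of the merged list, 58.5% of stop codon regions and 39.3% of coding regions. The share of regions called in all 8 lists rose from 20.6% within 500 nt of the stop codon to 32.7% beyond 4000 nt, as a description without a test.

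In the single lists, between 26.7% and 74.9% of the 3′UTR regions were called. The C4-2B lists called 26.7%, 55.3%, 53.7% and 50.1% in replicates 1 to 4, and the MDV-R lists 60.2%, 68.1%, 56.0% and 74.9%. Every MDV-R list called more than every C4-2B list. The difference was 18.4 percentage points (exact two-sided permutation test, p = 0.0286, the smallest that 4 against 4 lists allow, and 0.143 after Benjamini-Hochberg adjustment over 5 comparisons of the lines). With every list limited to the 13191 strongest peaks, the size of the smallest list (C4-2B replicate 1), the difference was 1.88 points (exact permutation p = 0.4), and without that replicate it was 11.8 points (exact permutation p = 0.0571). Recovered from the peak statistics, input bases were 0.747 to 1.22 times the IP bases in C4-2B and 1.56 to 3.15 times in MDV-R. Input depth and line thus cannot be told apart. The number of peaks tended to be higher in MDV-R but overlapped, with 13191 to 24746 in C4-2B and 23880 to 30645 in MDV-R. The IP libraries themselves overlapped in depth, with 317471 to 411737 fragments in C4-2B and 322361 to 414097 in MDV-R.

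**Figure D2:**
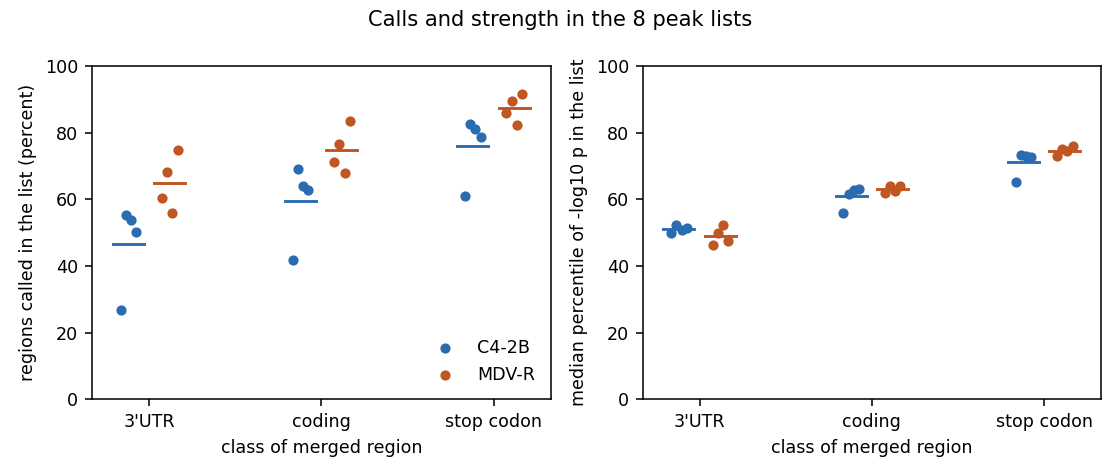
Percent of regions called in each list (left) and median percentile of −log10 p within the list (right) for 3′UTR, coding and stop codon regions; points are the 4 lists of each line and bars their means. In every list the 3′UTR regions are called less often and rank lower than both other classes.

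The composition of the lists differed less. The 3′UTR regions made up 4.71% ± 0.235 of all called regions for C4-2B against 5.18% ± 0.278 for MDV-R (SD, n = 4, exact permutation p = 0.0857, adjusted 0.214). The median distance of their summits from the stop codon was 1562 ± 13.9 nt for C4-2B against 1539 ± 28.4 nt for MDV-R (SD, n = 4, exact permutation p = 0.229, adjusted 0.286). Neither difference passed the test with all lists. Without MDV-R replicate 3 the share of called regions differed by 0.603 points (exact permutation p = 0.0286, unadjusted).

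By strength, 3′UTR regions stood in the middle of their lists and below stop codon regions. Strength was taken as the percentile of a region's −log10 p among all regions called in the same list. The median percentile of 3′UTR regions was 51.1 ± 0.976 for C4-2B against 49.0 ± 2.66 for MDV-R (SD, n = 4, exact permutation p = 0.229, adjusted 0.286), and without MDV-R replicate 3 the difference was −3.17 points (exact permutation p = 0.0286, unadjusted). Over the 8 lists it was 22.8 points lower than that of stop codon regions and 11.9 points lower than that of coding regions. Both differences had the same sign in 8 of 8 lists (exact sign-flip permutation p = 0.0078, the smallest that 8 lists allow, and 0.0078 after adjustment over 4 comparisons within lists). Ranked by fold enrichment, the IP signal over the local background, the difference from coding regions was −3.69 points and did not pass (exact permutation p = 0.141), and that from stop codon regions was smaller than by −log10 p, −14.9 points (exact sign-flip permutation p = 0.0156), with C4-2B replicate 1 at 0.067 points and the other 7 lists below 0. −log10 p grows with the number of fragments at a given fold enrichment.

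The order held inside genes. In genes with both kinds of region called in a list, 189 to 665 per list, the stop codon region ranked above the strongest 3′UTR region in 65.1% to 74.9%. Between 154 and 418 of the 877 genes per list had a called stop codon region but no called 3′UTR region, and 33 to 75 had the reverse. Along the 3′UTR the median percentile was 47.7 ± 2.58 within 500 nt, 50.2 ± 3.26 at 501 to 1000 nt, 48.9 ± 2.04 at 1001 to 2000 nt, 49.8 ± 2.87 at 2001 to 4000 nt and 55.1 ± 2.64 beyond 4000 nt (SD over 8 lists), so that the most distant class had the highest value, as a description.

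Among the strongest regions called in all 8 lists were those in ZNF827, MDM2, PPIL2, CAMK2G and ITGA3, with mean percentiles of 99.6, 99.5, 98.6, 98.6 and 98.2. The region of MDM2, the ubiquitin ligase of p53, lay at chr12:68841549-68842756 in exon 11 of 11, 2304 nt into a 3′UTR of 5695 nt. IP fragments at summits were recovered from fold enrichment and −log10 p and are given as CPM, counts per 1000000 IP fragments of the library. At its summit stood 444, 514, 571 and 636 CPM in C4-2B and 548, 583, 461 and 469 in MDV-R, and these values overlapped. Fold enrichment there was 10.8, 13.0, 17.1 and 16.4 in C4-2B and 27.5, 24.9, 12.2 and 27.0 in MDV-R. ZNF827, a zinc finger gene, had the highest fold enrichment of the 5, 23.6 to 35.9 in C4-2B and 31.5 to 60.4 in MDV-R. None of the 5 passed the test of fold enrichment between the lines described below (limma, adjusted p from 0.495 to 0.725). IP fragments differed at 1 of the 5, ITGA3, an integrin subunit gene, by 0.31 (log2, SE 0.106, adjusted p = 0.033).

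The regions called in all 8 lists and farthest from the stop codon were in CNKSR3 (17899 nt), AAK1 (17438 nt), CHST12 (12625 nt), ENAH (10489 nt) and CSNK2A1 (10383 nt). CSNK2A1 encodes the catalytic subunit of casein kinase 2, and its region ranked at a mean percentile of 94.2 with 213 to 330 CPM over the 8 lists. AAK1, a kinase gene of clathrin-mediated endocytosis, followed at a percentile of 72.3. The regions of CNKSR3, ENAH and CHST12 were weaker, at 45.3, 50.6 and 34.9. In ENAH, which encodes an actin regulator, IP fragments in CPM were 48.6, 96.0, 91.6 and 126 in C4-2B and 43.3, 34.1, 53.1 and 40 in MDV-R. Only C4-2B replicate 1 fell within the range of MDV-R, and the difference was −1.0 (log2, SE 0.213, adjusted p = 0.003). The midpoint of the CNKSR3 region also lay within the span of another protein-coding gene, which held for 117 of the 1836 regions.

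Under the summits of 3′UTR regions GGAC was frequent. In gene-strand windows that reached 50 nt from the summit both ways, 43.6% ± 2.20 (SD, n = 8 lists) held a GGAC, against 24.6% ± 0.489 in windows of the same width 300 nt to either side. The difference of 19.0 points was positive in 8 of 8 lists (exact sign-flip permutation p = 0.0078, adjusted 0.0078). On the opposite strand of the same windows 26.2% ± 1.36 held the motif, against 26.4% ± 1.33 in the flanks read on that strand too, a difference of −0.181 points (exact permutation p = 0.727). The share was 5.86 points lower than at stop codon summits, where it was 49.5% ± 1.27 (lower in 8 of 8 lists, exact sign-flip permutation p = 0.0078, adjusted 0.0078). For DRACH, which most windows of this width contain, the shares were 92.6% and 92.3% and the sign turned, with a difference of 0.35 points (exact permutation p = 0.555). Base composition differed as well, with 49.1% G and C under 3′UTR summits, 46.2% in their flanks and 53.0% under stop codon summits, and its part in the shares was not tested.

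The longer motif GGACT stood in 19.0% ± 1.19 of 3′UTR summit windows, 17.9% ± 0.977 of stop codon windows and 8.25% ± 0.344 of the flanks. Known elements of 3′UTRs were rarer under summits than beside them, as a description. AATAAA, the polyadenylation signal, was in 4.61% ± 0.679 of summit windows and 8.35% ± 0.334 of flanks, and ATTTA, the core of AU-rich decay elements, in 8.51% ± 0.862 and 13.7% ± 0.424. On the opposite strand the same letters were rarer under summits too, AATAAA in 4.15% against 7.77% of flanks and ATTTA in 8.50% against 13.7%. The difference was thus not particular to the gene strand, and the part of base composition in it was not tested. The GGAC share was similar along the 3′UTR, between 40.8% and 47.4% in the 5 distance classes, and the difference between the lines did not pass (44% ± 2.13 for C4-2B against 43.3% ± 2.53 for MDV-R, SD, n = 4, exact permutation p = 0.6, adjusted 0.6). The motif was not centred on the summit: its density was 0.365% to 0.452% of windows per nt at 51 to 150 nt upstream, 0.652% just downstream of the summit and still 0.627% at 90 to 99 nt downstream.

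**Figure D3:**
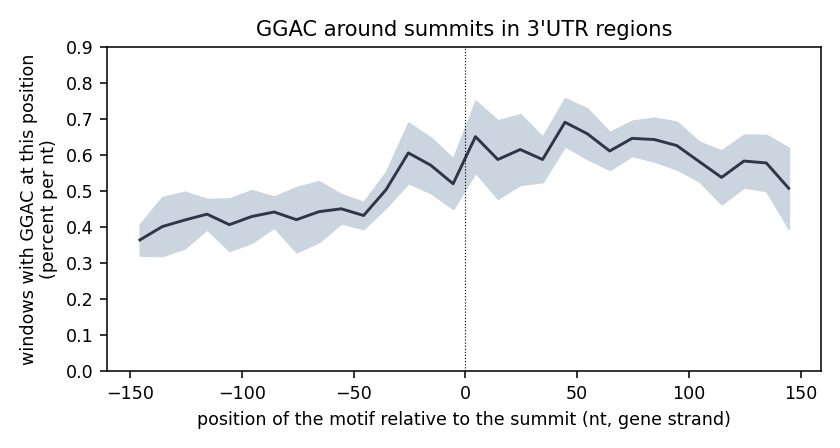
Percent of summit windows with a GGAC at each position (y axis, per nt in steps of 10 nt) against its distance from the summit on the gene strand (x axis); line, mean of the 8 lists, band, SD. The density is higher downstream of the summit (0.652% at 0 to 9 nt) than 100 nt or more upstream.

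Few 3′UTR regions were called in every list of one line and in none of the other. There were 62 in MDV-R (3.46% of the 1791 called at least once), against 3.68% over all regions, and 16 in C4-2B (0.893%), against 1.22% over all regions. Fisher's exact test gave p = 0.0286 for each of these 78, and 0 passed after adjustment over 36076 regions (lowest adjusted p 0.584). With lists of equal size the MDV-R count was 18. More regions were called in more MDV-R than C4-2B lists, 1011, than the other way round, 242. These were 56.4% and 13.5% of the 1791, against 49.7% and 18.4% of all regions called at least once, 32.3% and 5.31% of stop codon regions and 45.7% and 10% of coding regions, as a description. The MDV-R lists held 23880 to 30645 peaks and the C4-2B lists 13191 to 24746, and the part of this in the counts was not tested. The 62, the 16 and the 437 called everywhere had median percentiles of 41.1, 36.1 and 72.2, and GGAC stood at the strongest summit of 32.3%, 37.5% and 47.1%. These classes were defined by their calls, so a difference in strength follows from the choice and is no result about the regions. The percentiles of the 62 and the 16 come only from the lists of their own line.

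In 21 of the 62 MDV-R cases and 3 of the 16 C4-2B cases a further region of the gene was called everywhere, so its RNA was recovered from both lines. The strongest of these in MDV-R were in BCL11B, PLIN4, ATXN1, KLHL21, TRAF3 and FZD4, at mean percentiles of 68.7, 61.1, 55.7, 53.0, 49.5 and 47.6. BCL11B encodes a zinc finger transcription factor, and its region at chr14:99172162-99172694, 1723 nt from the stop codon, had 118, 149, 109 and 90.6 CPM in MDV-R. FZD4 encodes a Wnt receptor, and its region at chr11:86948779-86949162 had 92.9, 74.5, 89.4 and 82.6. PLIN4 encodes a lipid droplet protein. The 3 in C4-2B were in FRY, LINGO3 and MGAT1. FRY, which encodes a microtubule-binding protein, had 92.3, 136, 131 and 139 CPM in C4-2B at chr13:32298526-32298915, 3261 nt from the stop codon. A region without a peak has no recorded value, so the level in the other line is not known.

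Differences in level could be tested for the 437 regions called in all 8 lists, with limma on log2 values and adjustment over all regions called everywhere. They were regions strong enough to be called in both lines. Fold enrichment, IP fragments and local background were each centred on the list's median over the regions tested. A rise or fall is thus relative to that median, while values of single lists are given without centring. For fold enrichment, centred on each list's median, 4 of 437 were higher in MDV-R, against 0.847% of all regions tested, and 1 was higher in C4-2B, against 1.79%. At an unadjusted p under 0.05 there were 66, and the share over all regions at that level is not given here. Without centring the split was 21 higher in MDV-R and 0 in C4-2B. Over all 9327 regions tested it was 318 and 21, since their median then differed by 0.44 (log2). The calls depended on single lists. The number higher in MDV-R was 0 without C4-2B replicate 4 or without MDV-R replicate 1, 2 or 4, 1 without C4-2B replicate 2 or 3, 2 without C4-2B replicate 1 and 6 without MDV-R replicate 3. The number higher in C4-2B was 2 without C4-2B replicate 3 or 4, 7 without MDV-R replicate 3 and otherwise 1.

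The 4 regions with higher fold enrichment in MDV-R were in ST3GAL1, SPC24, THUMPD1 and SYNJ1. In ST3GAL1, a sialyltransferase gene, fold enrichment was 2.52, 2.94, 3.24 and 2.24 in C4-2B and 8.0, 8.63, 4.23 and 10.7 in MDV-R (difference of centred log2 values 1.06, SE 0.246, adjusted p = 0.026). After centring, IP fragments there fell by 0.67 on the log2 scale (adjusted p = 5.3e-04). The local background, the level the peak caller compared the IP with, fell by 1.70 after centring (adjusted p = 0.0011). SPC24, a subunit gene of the NDC80 kinetochore complex, showed the same pairing, with fold enrichment of 4.90 to 8.59 in C4-2B and 9.56 to 31.0 in MDV-R (difference 1.00, SE 0.257, adjusted p = 0.045) while IP fragments fell by 0.62 and the background fell by 1.59. In THUMPD1, a partner of the RNA acetyltransferase NAT10, fold enrichment was 4.57, 6.88, 6.56 and 7.04 in C4-2B and 14.5, 19.4, 10.8 and 18.6 in MDV-R (difference 0.92, SE 0.217, adjusted p = 0.029). The difference in its IP fragments did not pass (−0.17, adjusted p = 0.104). SYNJ1, which encodes the phosphoinositide phosphatase synaptojanin, was the 1 of the 4 where IP fragments rose, by 0.43 (adjusted p = 8.0e-04), with fold enrichment of 5.61 to 9.52 in C4-2B and 16.8 to 21.7 in MDV-R (difference 0.89, SE 0.225, adjusted p = 0.041). Leaving out 1 list at a time, ST3GAL1 passed in 3 of 8 fits (without C4-2B replicate 1 or 3 or MDV-R replicate 3), SPC24 and THUMPD1 in 1 (without MDV-R replicate 3) and SYNJ1 in 0.

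The region higher in C4-2B was in EVC, a hedgehog pathway gene of the primary cilium, at chr4:5813648-5814768. Fold enrichment was 20.8, 45.3, 33.5 and 18.4 in C4-2B and 14.3, 20.6, 6.92 and 20.7 in MDV-R, which overlapped before centring (difference of centred log2 values −1.35, SE 0.29, adjusted p = 0.017). IP fragments there were higher in MDV-R, by 0.26 (adjusted p = 0.0099), and the background rose by 2.17 (adjusted p = 0.0054). Leaving out 1 list at a time, EVC passed in 7 of 8 fits, all but the one without C4-2B replicate 2.

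IP fragments at the summit passed far more often. Their differences had a median SE of 0.099 (log2), against 0.256 for fold enrichment, so that smaller differences could pass. In simulated data the test of fold enrichment recovered 0% of log2 differences of 0.5, 24.5% of those of 1 and 94% of those of 2. The numbers that passed therefore do not compare how often each measure changed. IP fragments were higher in MDV-R at 114 of the 437 regions (26.1%), against 23.3% of all regions tested, and higher in C4-2B at 119 (27.2%), against 27% of all. Both shares were near those of all regions. In bulk RNA a higher number of IP fragments can come from more transcript or from more m6A per transcript, and these cannot be told apart from the IP alone. The local background at the same summits moved with the IP fragments. After centring it was higher in MDV-R at 103 of the 114 and lower at 114 of the 119. Of these, 21 and 34 passed the test for the background itself. Over the 437 regions the 2 differences had a Pearson r of 0.80, as a description across regions of the same libraries, and IP fragments and fold enrichment had 0.21. The background passed at 24 regions as higher in MDV-R, against 5.96% of all regions, and at 38 as higher in C4-2B, against 6.9%.

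**Figure D4:**
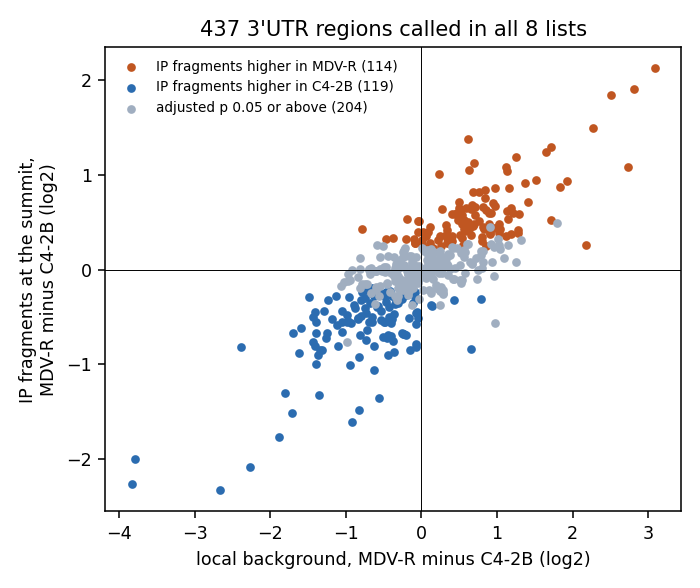
Difference between MDV-R and C4-2B in IP fragments (y axis, log2) against that in local background (x axis, log2) for the 437 3′UTR regions called in all 8 lists. Both measures were centred on each list's median. The 114 regions with more IP fragments in MDV-R and the 119 with more in C4-2B lie mostly in the quadrants where the background moved the same way.

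Among the largest rises in IP fragments were those in MBOAT1, EFNB3, ADCY1, ATP6V1FNB and PDZD4. These and the following 6 were chosen after their values were seen, from the largest differences in each direction. MBOAT1, a lysophospholipid acyltransferase gene, had 43.7, 79.1, 73.3 and 53.5 CPM in C4-2B and 294, 245, 258 and 245 in MDV-R at chr6:20101192-20101910 (log2 difference 2.12, SE 0.146, adjusted p = 2.3e-06). Its fold enrichment overlapped between the lines (difference 0.18, adjusted p = 0.808). In EFNB3, which encodes an ephrin ligand, the means were 59.5 ± 15.5 and 214 ± 18.9 (SD, n = 4, log2 difference 1.90). ADCY1, an adenylyl cyclase gene, had 45.8 to 85.0 in C4-2B and 208 to 261 in MDV-R. In ATP6V1FNB fold enrichment also differed in level, 5.23 to 11.6 against 14.1 to 23.6, but did not pass (difference 0.96, SE 0.279, adjusted p = 0.074), nor did the background (0.62, adjusted p = 0.330). For the other 4 genes the background rose by 1.71 to 3.09.

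The largest falls were in IGF1R, ZNF91, SMC1A, MALT1, MCM8 and CEP78. IGF1R encodes the receptor of insulin-like growth factor 1, and its region 4756 nt from the stop codon at chr15:98961467-98962929 had 148, 220, 226 and 227 CPM in C4-2B and 37.2, 49.6, 36.2 and 37.3 in MDV-R (log2 difference −2.33, SE 0.090). ZNF91, a zinc finger repressor of retrotransposons with close paralogs, had 257 to 362 and 49.5 to 77.6. SMC1A, a cohesin subunit gene, had 177 to 283 and 52.6 to 62.0, and MALT1, a protease gene of immune signalling, 287 to 397 and 77.4 to 96.6. None of these groups overlapped. The background fell by 1.88 to 3.84 in 5 of the 6 genes and did not pass at CEP78 (−0.92, adjusted p = 0.15), and fold enrichment passed in none of them (adjusted p from 0.079 to 0.498). The midpoint of the MCM8 region lay within another gene as well.

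To set the IP fragments of a 3′UTR region beside those of its own transcript, they were divided by the IP fragments of the stop codon region of the same gene. This comparison was added after the data were examined. It was possible for 182 of the 437 regions, and for 690 coding regions, which were tested together and without centring. IP fragments of the 3′UTR region and of the stop codon region moved together between the lines (Pearson r = 0.75 over the 182, a description across regions of the same libraries), and the median difference of the ratio was −0.01 (log2). The ratio was higher in MDV-R for 11 3′UTR regions (6.04%), against 3.56% of all regions tested, and higher in C4-2B for 18 (9.89%), against 5.39%. Among coding regions the counts were 20 (2.90%) and 29 (4.2%). Of the regions named above, those of IGF1R and EVC were among the 18 (log2 differences −0.51 and −0.52, limma adjusted p = 0.019 for both). Those of ST3GAL1 and ADCY1 did not pass (limma adjusted p = 0.960 and 0.619). Leaving out 1 list gave 5 to 12 and 12 to 19 for the 3′UTR regions, with the count for MDV-R at 5 without C4-2B replicate 2, at 6 without replicate 3 and at 6 without replicate 4, and the other count at 12 without C4-2B replicate 2. A region's ratio follows both the modification and how much of the transcript extends to that point, and their parts were not tested.

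The regions with the largest fall of the ratio were in NR2C2, GATAD2A, CEP78 and ADAM10. In NR2C2, an orphan nuclear receptor gene, the region lay 3855 nt from the stop codon, with 129, 200, 189 and 186 CPM in C4-2B and 77.4, 62.0, 82.1 and 50.7 in MDV-R. The difference at its stop codon region did not pass (log2 difference −0.04, adjusted p = 0.655). The ratio was 0.828, 0.934, 0.912 and 0.881 in C4-2B and 0.379, 0.286, 0.479 and 0.317 in MDV-R (log2 difference −1.31, SE 0.146, adjusted p = 2.6e-04), with no overlap between the lines. In ADAM10, which encodes a protease that sheds membrane proteins, the ratio was 0.684 to 0.779 in C4-2B and 0.311 to 0.517 in MDV-R (log2 difference −0.88, SE 0.148, adjusted p = 0.0049), and the difference at its stop codon region did not pass (0.03, adjusted p = 0.749). In GATAD2A, a gene of the NuRD chromatin complex, the stop codon region also fell, by 0.24 (adjusted p = 0.014), and the ratio fell by 1.06 (SE 0.136, adjusted p = 9.2e-04). The falling regions in these 4 genes lay 3084 to 5416 nt from the stop codon, and those with the largest rises, named next, lay 1218 to 3488 nt from it. These ranges overlapped, and a relation of the ratio to distance was not tested.

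The largest rises of the ratio were in SMIM10L2B, NMT1, WDR73 and GID8. In GID8, a subunit gene of an E3 ubiquitin ligase complex, the 3′UTR region had 126, 155, 177 and 148 CPM in C4-2B and 226, 230, 232 and 179 in MDV-R, while the difference at its stop codon region did not pass (−0.05, adjusted p = 0.695). The ratio was 0.47 to 0.558 in C4-2B and 0.602 to 0.970 in MDV-R (log2 difference 0.59, SE 0.137, adjusted p = 0.019). In WDR73 the 3′UTR region rose by 0.51 (adjusted p = 0.0032) and the difference at the stop codon region did not pass (−0.13, adjusted p = 0.291). In NMT1, an N-myristoyltransferase gene, it was the stop codon region that fell, by 0.67 (adjusted p = 2.6e-04), with 3′UTR values of 138 to 164 in C4-2B and 136 to 174 in MDV-R. SMIM10L2B, a gene with a near-identical paralog, fell at both, by 0.92 in the 3′UTR and by 1.74 at the stop codon. Reads that map to both copies were removed with the multiply mapped reads.

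**Figure D5:**
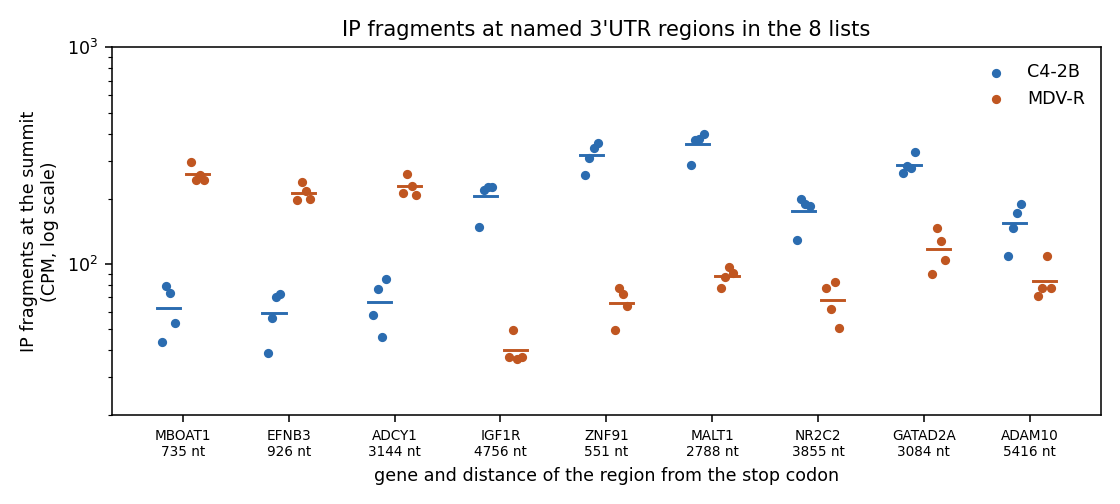
IP fragments at the summit in CPM (y axis, log scale) of 9 named 3′UTR regions, each with its distance from the stop codon; points are the 4 lists of each line and bars their means. MBOAT1, EFNB3 and ADCY1 are higher in MDV-R, and the other 6 are higher in C4-2B, in every list.

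Gene lists that bear on 3′UTRs and on these cells each had 1 to 8 genes with a 3′UTR region. The share over all genes is not given here. None of their regions was called in every list of 1 line and in none of the other, and none passed the test of fold enrichment. In STEAP2, a metalloreductase gene of the androgen response, the region ranked at a mean percentile of 93.8. Its IP fragments were 362, 426, 501 and 479 CPM in C4-2B and 390, 459, 336 and 304 in MDV-R, which overlapped (log2 difference −0.23, SE 0.087, adjusted p = 0.046). TMPRSS2, a serine protease gene of the same list, held a region called in 3 lists of C4-2B and 4 of MDV-R, 1078 nt from the stop codon.

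Of 21 genes of the m6A machinery, 4 held 1 region each, and 0 of these were called in all 8 lists. The most unequal were IGF2BP2, which encodes an m6A-binding protein, with 3 lists of C4-2B and 0 of MDV-R, and YTHDF1, the gene of a reader, with 0 of C4-2B and 3 of MDV-R. Of 13 genes of the microRNA pathway, 3 held 4 regions. AGO4 and TNRC6C, which encode proteins of the silencing complex, each had 1 region called in all 8 lists, with more IP fragments in MDV-R (log2 differences 0.45 and 0.94, adjusted p = 0.0092 and 0.0016). In TNRC6C the background rose too, by 1.51 (adjusted p = 0.021). Of 26 genes of mRNA decay and 3′UTR binding 5 held a region, and SAMD4A was the most unequal, with 1 list of C4-2B and 4 of MDV-R. Of 21 cleavage and polyadenylation genes 1 did, CPSF7, a subunit gene of cleavage factor I. Its region 1333 nt from the stop codon had fold enrichment of 3.68 to 11 in C4-2B and 10.4 to 25.5 in MDV-R (difference 0.84, SE 0.262, adjusted p = 0.092), and the difference in IP fragments did not pass (−0.11, adjusted p = 0.370).

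Of 41 genes with short-lived mRNAs, 8 held a region, and 6 of these 8 regions were called in more MDV-R than C4-2B lists and 0 in fewer, against 1011 and 242 of all 3′UTR regions. The 1 called in all 8 lists was in ID2, 70 nt from the stop codon, and the difference in its IP fragments did not pass (0.18, adjusted p = 0.163). Among 12 genes examined by targeted assays in the study, 1 held a 3′UTR region away from the stop codon, SYT4, which encodes a synaptotagmin. It was called in 1 MDV-R list, 1747 nt from the stop codon, at a percentile of 9.18.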

How the data were processed

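Per the labels and methods, the authors aligned MeRIP-seq reads to hg38 (STAR 2.7.0, GENCODE release 39), removed multiply mapped and duplicate reads (SAMtools 1.10) and ran MACS2 3.0.0a6 on every IP replicate with input as control (extension 100 nt, genome size 300 Mb). The deposited lists give for each peak a score, a fold enrichment (ratio), the −log10 p and the −log10 q, and the deposited merged list gives intervals without values. How it was merged is not given in the sources used here, and no region of it meets 8.59% of the 191974 peaks. Read counts were not analysed here.

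Regions were placed with GENCODE release 44 on the same build, which differs from the authors' release. 621 regions outside chromosomes 1 to 22 and X were not annotated. The strongest overlapping peak by −log10 p stood for a region in a list. IP fragments and local background at each summit were solved from fold enrichment and −log10 p as the whole number of fragments that gives both, within a tolerance of 0.003 in −log10 p. This held for 99.99% to 100% of peaks per list. The steps of the background matched a fragment length of 239 to 293 nt, equal to the shortest peak of each list, and not the stated 100 nt, so fragment totals rest on that length and the stated genome size. They cover counting of deduplicated fragments only. The background is in units of the lowest background of its list, and was centred on the list's median for the tests, as were IP fragments.

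Lists were compared with exact permutation tests over 70 arrangements, and values within lists with exact sign-flip tests over 256. Regions were compared with Fisher's exact test and with limma 3.58.1 in R 4.3.3, Benjamini-Hochberg adjusted over all regions tested, at 0.05. The tests and positions along the 3′UTR were tested on simulated data. Named were, per direction, up to 8 regions that passed for fold enrichment, per line up to 6 called in that line alone in genes with another region called everywhere, the 6 strongest, the 5 farthest, the 5 genes with most regions, and list members that were the most unequal of their list or were studied in targeted assays, with 1 region per gene. Members, lists and rules were chosen with earlier results of these data known. Alternatives were −log10 q of at least 5, lists of equal size, 50% overlap, members outside all coding sequence or at least 500 nt from the stop codon, DRACH, windows of 25 nt, the opposite strand, other position and strength measures, a replicate block and the omission of each list in turn. Same-numbered lists of the lines did not deviate together (correlations of −0.07 to 0.03 over regions called everywhere), so numbers were not taken as pairs. Some genes and sequences chosen by these rules are not reported here.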

Additional observations from a re-analysis of the deposited data

Results flagged for a closer look

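In 7 of 114 groups of 4 lists that were examined, 1 list stood apart from the other 3 by Dixon's ratio, the gap to the nearest list over the range, and chance gives about 1 in 20. All were IP fragments in CPM at single regions. In EVC the ratio was 0.837 in C4-2B, where replicate 1 was low (199 against 263 to 275), and 0.921 in MDV-R, where replicate 2 was high (344 against 277 to 283). In IGF1R it was 0.917 in C4-2B, where replicate 1 was low, and 0.918 in MDV-R, where replicate 2 was high. In MDV-R replicate 2 was also high in NMT1 (0.911), replicate 4 was low in GID8 (0.891) and replicate 3 was high in ADAM10 (0.831).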

How the results depend on the processing

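Under the alternatives 163 values kept their side of 0.05 (counts, within 1.5 times), of which 7, from comparisons of the lines that did not pass, changed sign, and 24 moved, 9 lost and 2 gained a call and 2 turned direction. The share of 3′UTR regions called differed by 1.88 points with lists of equal size, by 18.4 points with the replicate number as a block (exact permutation p = 0.125, the smallest that 4 pairs allow) and by 11.8 to 21.3 points leaving out a list. Leaving out a list, the share of called regions differed by 0.365 to 0.603 points and the median percentile by −3.17 to −1.15. The DRACH share was 0.35 points above that of stop codon regions, and on the opposite strand GGAC differed by −0.181 points from the flanks and by −0.668 from stop codon regions. By fold enrichment, 3′UTR regions differed from coding regions by −3.69 points and from stop codon regions by −14.9. Regions called in every list of 1 line and in none of the other numbered 18 in MDV-R with equal lists. Leaving out a list, they numbered 62 to 105 in MDV-R and 16 to 32 in C4-2B (105 without MDV-R replicate 3, 32 without C4-2B replicate 1). Regions with a difference in fold enrichment, higher in MDV-R and higher in C4-2B, numbered 4 and 1. They were 0 and 1 with equal lists, 1 and 3 with the replicate block, 21 and 0 without centring, 114 and 119 for IP fragments, 24 and 38 for background, 11 and 18 relative to the stop codon region, and 0 to 6 and 1 to 7 leaving out a list. The cause of these changes was not tested. IP fragments passed at 104 to 146 and 98 to 142 regions leaving out a list. With the replicate block, higher in MDV-R and higher in C4-2B, IP fragments passed at 115 and 110 regions (113 and 108 of them among those without it), background at 19 and 26 (17 and 24) and the ratio to the stop codon region at 11 and 18 (8 and 17). Of the calls named in the text, those of fold enrichment in SPC24, THUMPD1 and SYNJ1 and of IP fragments in STEAP2 (adjusted p = 0.091) were lost with the block, which was chosen for IP fragments, background and ratio after seeing the data.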
